A study of Rattus norvegicus with 6 samples.

Results

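Transcripts of 3 fibrillar collagen chains, Col1a1 (ENSRNOG00000003897), Col1a2 (ENSRNOG00000011292) and Col3a1 (ENSRNOG00000003357), were followed in rat bone marrow mesenchymal stromal cells with and without a hydrogel. The 3 genes were chosen by identifier from the 30452 listed in the count table, as the main fibrillar chains of bone matrix and of stromal cells. They were proposed with levels and group differences of these same libraries already known, although the rule of choice sets no value and no threshold. Their levels and differences are therefore given as a description. Intervals and calls from the fit across all genes are printed beside them to show the spread and the background, and are not used as evidence of a difference. All 3 had counts in every library and passed the low-count filter.

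Bone marrow stromal cells are adherent marrow cells that can form bone, cartilage and fat. Wild-type cells from in vitro osteogenic differentiation experiments were either left without material (control, n = 3) or co-cultured with the AAT-ZCG hydrogel (n = 3). Per the series' title the gel is an enzyme-linked, multifunctional one meant for diabetic bone defects; what AAT-ZCG stands for is not given in the sources used here. Strain, age, culture time and gel dose are not given in the sources used here, and no label says that the 3 samples of a group were separate cultures or animals. The spread between them may then be technical.

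Library totals ran from 30601703 to 93728651 counts, with the deepest library numbered 2 in both groups. Of 14715 genes tested, 5079 were called in either direction. The labelled cell type could not be checked against its markers, because the files give identifiers alone and the RefSeq gene table matched 0 of them to a symbol. In bulk RNA of this kind, fewer cells expressing a gene and less of its RNA per cell cannot be told apart.

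Fibrillar collagens are secreted as procollagens, whose 3 chains wind into a triple helix before the end propeptides are removed and the molecules pack into fibrils. Type I collagen, the principal protein of bone matrix, is usually a heterotrimer in which alpha1 chains encoded by Col1a1 outnumber the alpha2 chain encoded by Col1a2. Type III collagen is a homotrimer of the Col3a1 product and is found with type I in soft connective tissue, vessel walls and marrow stroma. Both types are made by fibroblasts and stromal cells, and osteoblasts make mainly type I.

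As a check of identity, the gene length behind each deposited FPKM value (a count scaled by gene length and library total) was recovered from the count, the FPKM and the library total. It was 5825 bp for Col1a1, 4687 bp for Col1a2 and 4787 bp for Col3a1, the same in all 6 libraries. The median over the 14715 genes tested was 2758 bp, and 80.5% of them were shorter than Col1a2. Long transcripts are what these large chains require, but a length does not identify a gene, and the symbols rest on the list of identifiers. Reads shared with other fibrillar collagen genes, whose triple-helix exons are alike, were not examined.

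The RefSeq promoter table held 1 of the 3 genes, Col1a2. The stretch from 250 to 151 bases before its annotated start is shown because Col1a2 is 1 of 3 genes that were all lower with hydrogel. The window was set after the promoter sequence had been seen, to hold both boxes marked here, so the presence of these boxes in it follows from the choice. Where transcription begins relative to the annotated start was not examined. It lies at chr4:33518307-33518406 on the plus strand of GRCr8, a rat build that need not be the one behind the counts. Capitals mark a CCAAT box, read on the minus strand as ATTGG, and a TATAAA box.
Col1a2: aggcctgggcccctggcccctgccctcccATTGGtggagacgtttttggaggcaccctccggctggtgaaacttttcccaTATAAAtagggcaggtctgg
The CCAAT match lay 221 to 217 bases and the TATAAA match 170 to 165 bases before the annotated start. Searched on both strands, CCAAT was present in 14.5% and TATAAA in 5.43% of the same 100-base windows of 33469 promoters, and both in 0.813%. CAGAC, the core of a Smad-binding element, was found 156 to 152 bases before the start on the minus strand and in 20.5% of windows. GGGCGG, a GC box, was not among these 100 bases and was in 10.4% of windows. Those shares describe how common the letters are in windows at that distance from an annotated start. The other windows were not placed by their boxes, so the shares do not say how rare such boxes are in promoters. A match in letters is a description and does not show that a factor binds.

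All 3 chains were lower in every hydrogel library than in any control library. The same separation was seen in 23.5% of the 14715 genes tested. It was seen in 37.5% of the 88 genes at a mean of 1000 CPM (a count scaled to a common library total) or more. The mean FPKM of Col1a1 was lower by 39.7% in relative terms, that of Col3a1 by 29.7% and that of Col1a2 by 20.3%. Col1a1 and Col1a2 encode the partners of 1 molecule, yet their differences were the largest and the smallest of the 3.

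Col1a1, which encodes the alpha1 chain of type I collagen, had FPKM values of 3750, 3725 and 3840 in control samples 1, 2 and 3. With hydrogel the values were 2254, 2282 and 2288. The lowest control exceeded the highest hydrogel library by 1437 FPKM, and the SD was 60.4 among controls and 18.3 with hydrogel. Each of the 9 possible ratios of a hydrogel to a control library fell between 0.587 and 0.614. In edgeR, on TMM-scaled counts, the log2 fold change of Col1a1 was -0.70 (SE 0.031, 95% interval -0.77 to -0.64), a level of 0.614 times the control.

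Col1a2, the alpha2 chain that completes the type I heterotrimer, stood at 3124, 3031 and 3067 FPKM in the controls. The hydrogel libraries gave 2477, 2459 and 2413 FPKM. There was again no overlap, with a gap of 553.6 FPKM between the nearest libraries and SDs of 47.0 and 33.3. Ratios of single hydrogel to single control libraries ran from 0.772 to 0.817. The log2 fold change was -0.30 (edgeR, SE 0.030, 95% interval -0.37 to -0.24), or 0.811 times the control.

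Col3a1, the only chain of type III collagen, gave 1792, 1621 and 1643 FPKM in the controls. Its hydrogel values were 1180, 1183 and 1192 FPKM. Control 1 lay above the other controls, so the control SD was 93.3 FPKM against 6.11 with hydrogel. The gap between the groups was 429.5 FPKM. The 9 ratios ran from 0.658 to 0.735. The log2 fold change of Col3a1 was -0.48 (edgeR, SE 0.037, 95% interval -0.56 to -0.40), or 0.716 times the control, and -0.44 without control 1.

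**Figure D1:**
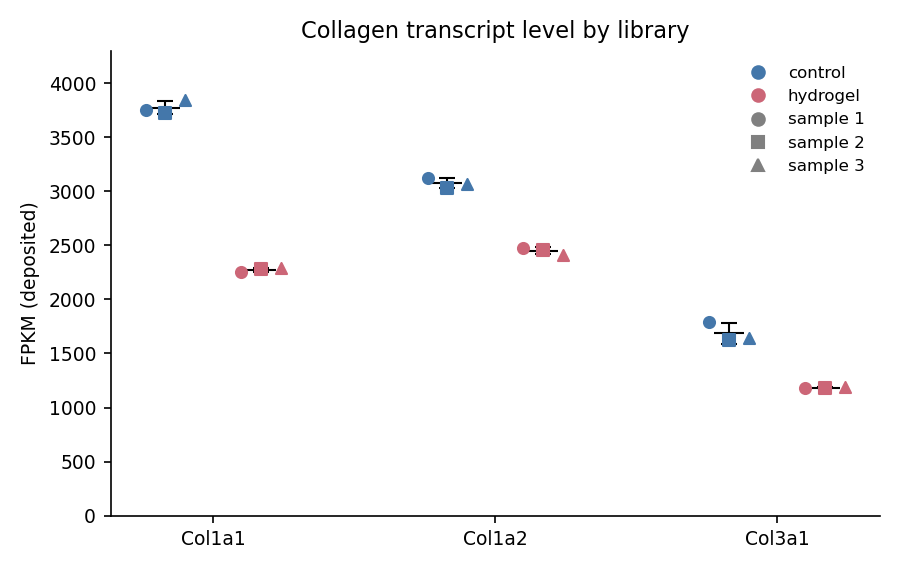
Deposited FPKM (vertical axis, from 0) of Col1a1, Col1a2 and Col3a1 in each library, with controls in blue, hydrogel in red, marker shape for the sample number, and black bars for the mean ± SD (n = 3). Hydrogel libraries sit below all controls for each gene, at 2254 to 2288 against 3725 to 3840 for Col1a1.

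Counting error alone was small at these counts. Single libraries held between 174544 (Col3a1, hydrogel 3) and 2033692 (Col1a1, control 2) counts of a chain, so the Poisson error was between 0.070% and 0.239% of the value. The relative SD between libraries of a group was larger, from 0.52% (Col3a1, hydrogel) to 5.53% (Col3a1, control).

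The fit across all genes called each of the 3 chains lower, at a Benjamini-Hochberg adjusted p under 0.05. By the same call 17.1% of all genes tested were lower. Abundant genes are called more often, and among the 88 genes at a mean of 1000 CPM (a count scaled to a common library total) or more 34.1% were called lower. All hydrogel libraries lay below all controls for 23.5% of genes tested and for 37.5% of those 88, as they did for all 3 chains. None of the chains reached the fold below 0.5 that the series' design text sets for its lists, which 2.12% of genes tested passed together with the adjusted p. Since the chains were proposed from this same comparison, nothing is read from these counts.

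Among the 88 abundant genes, Col1a1 had the second most negative log2 fold change, Col3a1 the 7th and Col1a2 the 19th. The median absolute log2 fold change of those 88 was 0.29, which Col1a2 barely exceeded, and their lowest was -1.32. Among all 14715 genes, 4.83% had a more negative value than Col1a1, 8.75% than Col3a1 and 16.0% than Col1a2. Genes of low count reach more extreme values by counting error, so the rank among abundant genes compares like with like in that respect.

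**Figure D2:**
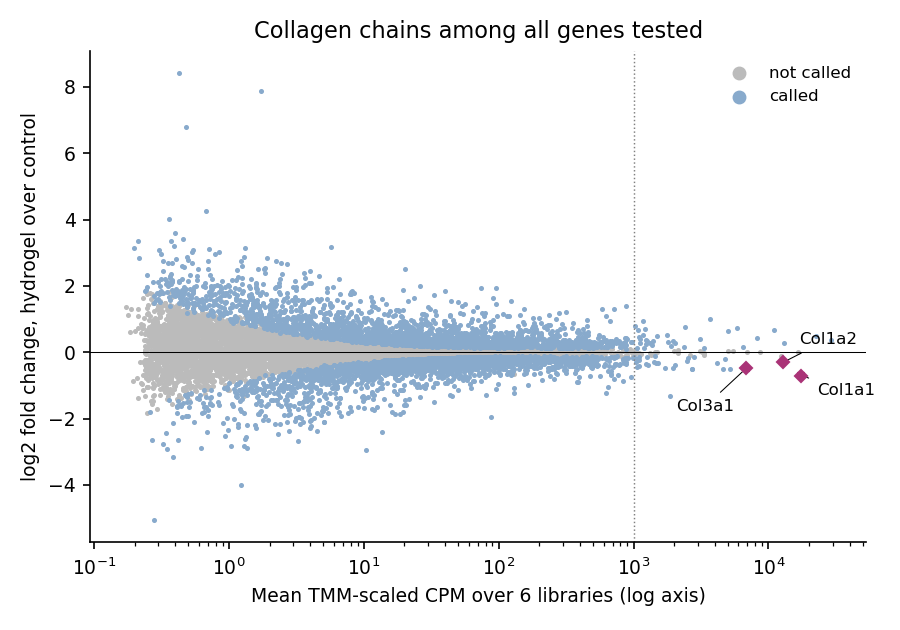
Log2 fold change of hydrogel over control against mean TMM-scaled CPM (log axis) for the 14715 genes tested, with called genes in light blue, others in grey, and the 3 chains as purple diamonds with 95% intervals that are mostly hidden by the symbols. The dotted line marks 1000 CPM; right of it, Col1a1 at -0.70 lies near the lower edge of the 88 genes.

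The chains are among the most abundant transcripts of these cells, and they ranked lower with hydrogel. By raw count Col1a1 was the 2nd gene of the table in all 3 controls and the 5th or 6th in hydrogel libraries. Col1a2 went from 5th in each control to 7th or 8th, and Col3a1 from 9th or 10th to 15th. Per length the chains stood lower in the order: by FPKM Col1a1 was 10th in each control and 20th or 21st with hydrogel, Col1a2 13th to 15th and then 19th or 20th, and Col3a1 23rd to 29th and then 34th to 36th.

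Together the 3 genes took 4.45% ± 0.072 (SD, n = 3) of all counts in controls and 3.04% ± 0.0072 in hydrogel libraries. Single controls held 4.51%, 4.37% and 4.46%, and the hydrogel libraries 3.04%, 3.05% and 3.03%. Of the difference of -1.40 percentage points, Col1a1 accounted for -0.872, Col1a2 for -0.293 and Col3a1 for -0.240. These were the 3 largest reductions in mean share of any gene in the table, in that order. A reduction in share grows with abundance, so this is not an order of fold change. By log2 fold change Col1a1 was 2nd, Col3a1 7th and Col1a2 19th from the most negative among the 88 abundant genes. Summed over all genes whose mean share was lower, the change was -9.03 points, of which the 3 chains made up 15.5%. By arithmetic, the difference of -1.40 points adds a log2 of 0.021 to the summed share of all other genes. It is not a shift seen in each gene. With libraries scaled by their totals alone, the median log2 fold change over all genes tested was -0.024.

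Ratios between the chains differed between the groups. They restate the unequal fold changes given above and are no separate result. How often other pairs of genes separate in this way was not counted. These ratios are formed inside a library, so they do not depend on library scaling. Per length, controls held 1.20, 1.23 and 1.25 Col1a1 transcripts for each Col1a2 transcript, and hydrogel libraries 0.910, 0.928 and 0.948. The mean ratio was 1.23 ± 0.026 (SD, n = 3) among controls and 0.929 ± 0.019 among hydrogel libraries, which is 24.3% lower and without overlap. In log2 the difference was -0.40, beside a pooled SD of 0.030.

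The order of the 2 type I chains per length was thus Col1a1 above Col1a2 in each control and Col1a2 above Col1a1 in each hydrogel library. That order, unlike the change of the ratio, rests on the gene lengths the authors used. In raw counts Col1a1 stayed ahead in both groups, at 1.53 ± 0.032 counts for each Col1a2 count in controls and 1.15 ± 0.024 with hydrogel. Col3a1 had the lowest FPKM of the 3 chains in every library.

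Relative to the alpha1 chain of type I, type III was higher with hydrogel, and relative to the alpha2 chain it was lower. The Col3a1 to Col1a1 ratio of FPKM was 0.478, 0.435 and 0.428 in controls and 0.523, 0.518 and 0.521 with hydrogel, a log2 difference of 0.22 beside a pooled SD of 0.061. The Col3a1 to Col1a2 ratio was 0.574, 0.535 and 0.536 in controls and 0.476, 0.481 and 0.494 with hydrogel, a log2 difference of -0.18 beside a pooled SD of 0.045. Neither ratio overlapped between the groups, but how often other pairs of genes separate was not counted. Control 1 had the highest value of both ratios among controls. Without control 1 the differences were 0.27 and -0.15.

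**Figure D3:**
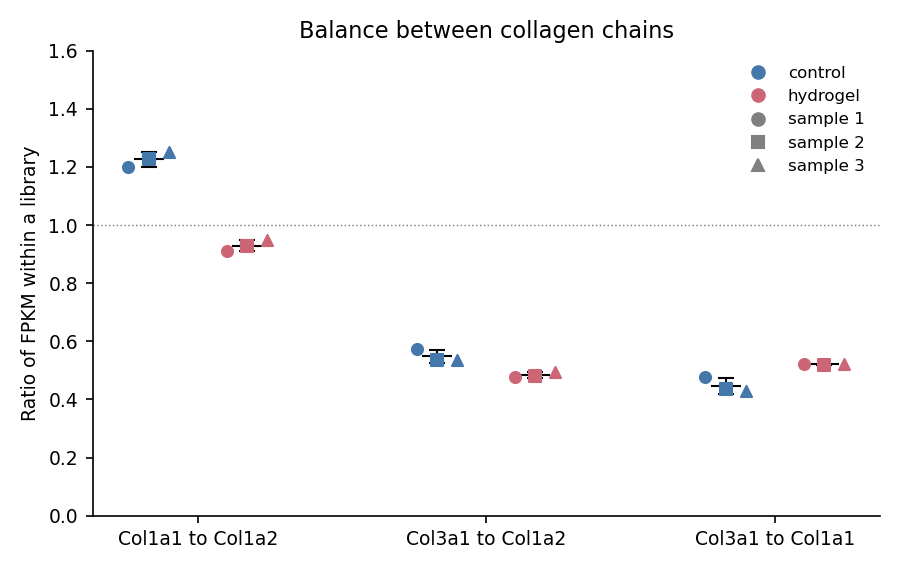
Ratio of FPKM between chains within each library (vertical axis, from 0; dotted line at 1), with controls in blue, hydrogel in red, marker shape for the sample number and black bars for the mean ± SD (n = 3). Col1a1 to Col1a2 lies at 1.20 to 1.25 in controls and 0.910 to 0.948 with hydrogel, Col3a1 to Col1a2 is lower with hydrogel and Col3a1 to Col1a1 is higher.

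The chains were compared with the 1728 other genes at a mean of at least 100 CPM, using the root mean square distance between log2 CPM profiles centred over the 6 libraries. No symbol is paired with these identifiers, and because the group difference dominates each profile, closeness mainly means a similar fold change. The closest to Col1a2 was ENSRNOG00000007151, at a distance of 0.0081 log2 units, with a log2 fold change of -0.31 (SE 0.043) and a mean of 209.7 CPM. The closest to Col3a1 was ENSRNOG00000029212, at 0.028, with a log2 fold change of -0.50 (SE 0.044) and a mean of 382.3 CPM. Around Col1a1 the nearest gene was at 0.043.

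The collagen chains were not each other's nearest neighbours on this measure. Col3a1 was 0.122 log2 units from Col1a1, with 38 genes closer, and Col1a2 was 0.203 from Col1a1, with 170 genes closer. Between Col1a2 and Col3a1 the distance was 0.0971. Of the 1728 genes compared, 377 were closer to Col1a2 than Col3a1 was, and 1106 were closer to it than Col1a1 was. Seen from Col3a1, 81 genes were closer than Col1a2 and 180 were closer than Col1a1.

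The sizes of the fold changes varied little with the way of fitting. Over the 18 alternatives tried, which reuse the same libraries, the log2 fold change ran from -0.73 to -0.69 for Col1a1, from -0.51 to -0.44 for Col3a1 and from -0.33 to -0.29 for Col1a2, so the ranges of the 3 chains did not meet. Within the shallower libraries, samples 1 and 3 of each group, the values were -0.72 for Col1a1, -0.51 for Col3a1 and -0.32 for Col1a2. The deep libraries, 1 per group, showed the same order, with FPKM of 2282 against 3725 for Col1a1, 1183 against 1621 for Col3a1 and 2459 against 3031 for Col1a2.

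**Figure D4:**
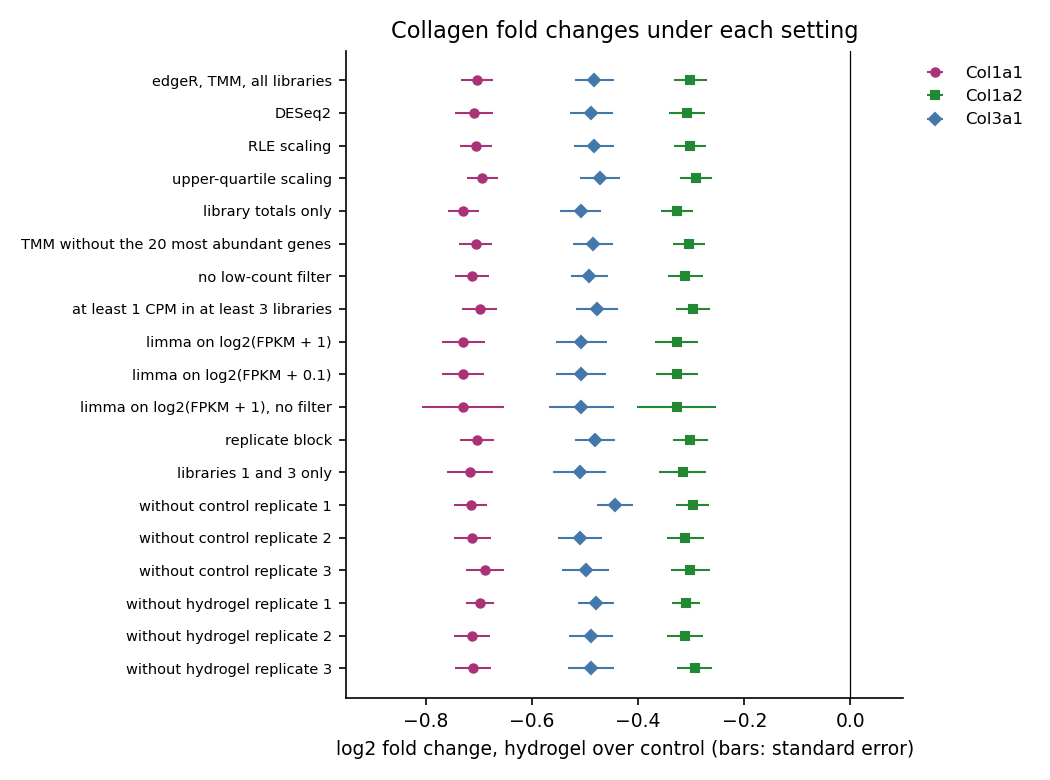
Log2 fold change of hydrogel over control (horizontal axis, bars are standard errors) for Col1a1 (purple circles), Col3a1 (blue diamonds) and Col1a2 (green squares) under the fit reported here and 18 alternatives (vertical axis). All points lie left of 0, and the 3 chains keep separate ranges: -0.73 to -0.69, -0.51 to -0.44 and -0.33 to -0.29.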

How the data were processed

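The authors deposited raw counts per gene for 6 libraries in 1 table and, per the file headers, an FPKM table for each. The deposited counts are whole numbers without normalization. The deposited FPKM values equal count divided by gene length and library total. Per the labels' protocols, TRIzol was used for RNA and the VAHTS Universal V6 kit for libraries. Aligner, counter and strandedness are not given in the sources used here. Mouse builds (GRCm38, mm10) appear in the submitters' processing notes although the identifiers are of rat, so no coordinates of counted genes are given.

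Counts were fitted with edgeR 4.0.16 in R 4.3.3 (filterByExpr, TMM, quasi-likelihood F test, group as the only term, Benjamini-Hochberg over 14715 genes). Standard errors are the absolute log2 fold change over the root of F. Within each group, every pair of replicates differed by more than counting noise (chi-square per degree of freedom 6.49 to 18.0). That does not show whether they were separate cultures or animals. Alternatives were DESeq2 1.42.0, limma 3.58.1 on log2 FPKM, other scalings and filters, a replicate block and leaving out libraries. Members and lists were chosen with earlier results of these data known. Lists of collagen-processing genes and cell markers, given by symbol, were not analysed here because 0 identifiers could be matched to symbols. The naming rule takes the 3 chains and, per chain, the nearest profile at 100 CPM or more, with at most 2 identifiers per direction (the closest 2 matches).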

Additional observations from a re-analysis of the deposited data

How the results depend on the processing

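Each chain was lower with hydrogel in all 18 alternatives, a description of the contrast the chains were proposed from. Leaving out 1 library gave log2 fold changes of -0.72 to -0.69 for Col1a1, -0.31 to -0.29 for Col1a2 and -0.51 to -0.44 for Col3a1. The ratios between chains moved by less than their pooled SD in all 8 alternatives. Of these, the replicate block gives the same difference by construction, and the rest are subsets of the same 6 libraries. The share held by the 3 chains, -1.40 points, was -1.34 of the TMM-scaled library size and -0.678 of summed FPKM, a different denominator by construction. With a replicate block on sample numbers, log2 fold changes were -0.70, -0.30 and -0.48 for Col1a1, Col1a2 and Col3a1, and 5246 genes were called in place of 5079. No label says that the numbers pair the samples. Deviations of same-numbered libraries correlated at 0.022, 0.051 and 0.013, and for each control the highest correlation was with its own number. Values this small do not settle whether the samples were paired. DESeq2 called 5000 genes, edgeR with no low-count filter 5335, limma on log2 FPKM 4299 and 4265 (pseudocounts of 1 and 0.1) and 3835 unfiltered, samples 1 and 3 alone 3405, and leaving out 1 library 3977 (without control 2) to 4695 (without hydrogel 2). Scaling by library totals alone shifted the median over all genes from 0.0021 to -0.024 in log2 and gave -0.73, -0.33 and -0.51 for the chains. Genes lower with a fold below 0.5 numbered 312, against 75 and 158 with limma on log2 FPKM at pseudocounts of 1 and 0.1 and 76 unfiltered; the cause was not tested. Planned gene list counts were not run.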
